A study of Mus musculus with 18 samples.

Results

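The motile cilia genes described here are 65 of the 55385 genes in the count tables of mouse hippocampus with a conditional knockout (cKO) of Arid1a and of wild-type (WT) hippocampus. They were chosen by symbol: the 31 Cfap genes (cilia and flagella associated proteins), 15 Dnah genes (axonemal dynein heavy chains) and 8 Rsph genes (radial spoke proteins) of the tables, and 11 single genes, namely Foxj1, Mcidas, Ccno, Tmem212, Hydin, Ccdc39, Ccdc40, Ak7, Tekt1, Spag17 and Drc1. They lie on 20 chromosomes, with RefSeq coordinates (build GRCm38.p6, used throughout) for 64 of the 65.

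Motile cilia beat because dynein arms slide neighbouring microtubules of the axoneme past each other, while radial spokes and the central pair coordinate the stroke. In the brain they are carried in tufts by the ependymal cells that line the ventricles, and also by the epithelium of the choroid plexus, both of which border the hippocampus. The programme is set up by Mcidas and Ccno, which drive the amplification of centrioles, and by the forkhead factor Foxj1 together with RFX factors, which switch on the axoneme genes.

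The RNA libraries came from hippocampus of C57BL/6 mice, with 2 cKO and 2 WT libraries at postnatal day 21 (P21) and 3 cKO and 3 WT libraries at embryonic day 16.5 (E16.5). ChIP-seq of H3K4me3 (a mark of active promoters), H3K27ac (of active promoters and enhancers) and H3K27me3 (of Polycomb repression) was made at 3 weeks of age with 1 cKO and 1 WT library per mark, each with its own input. The labels name neither the driver of the deletion nor the cells in which it took place, and give no sex, litter or pooling. Expression is given as CPM, which are counts relative to the TMM-scaled depth of each library. A log2 change is that of cKO over WT, and its standard error (SE) is approximate. CPM ranks between genes served only to choose which genes to name, since transcript lengths were not used here.

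The RNA libraries held 17662335 to 20332148 estimated counts. Arid1a itself had 99.6 ± 14.7 CPM in cKO and 210 ± 6.98 CPM in WT at P21 (SD, n = 2 each), a log2 change of -1.08, and 177 ± 2.5 CPM in cKO and 276 ± 12.5 CPM in WT at E16.5 (SD, n = 3 each), a log2 change of -0.64, with edgeR adjusted p of 0.00507 and 0.032. The peak lists rest on 17399169 to 19291198 ChIP tags per library. Of the 2 ependymal markers, Foxj1 was detected in all 10 RNA libraries. Tmem212 had 10 to 44 counts per library at P21, but at E16.5 it had 0 counts in 5 libraries and 1 count in WT replicate 3. At E16.5 the label of ependyma therefore rests on Foxj1 alone, which cells that are still forming cilia also express.

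The promoters of these genes were searched for the motifs of the factors named above. RefSeq promoters (GRCm38.p6, 250 bases before to 50 bases after the start) were found for 53 of the 65 genes. The RFX motif, or X-box, was searched on both strands as the letters GTTNCC, any 2 bases and GGNAAC. Its exact form stood in 1 of these 53 promoters (1.9%), that of Cfap298, against 0.529% of all 27025 genes with a promoter in the table. These are not limited to protein-coding genes, and a gene with several promoters is counted once, here and below. With at most 1 mismatch among its 10 fixed letters it stood in 8 of the 53 (15.1%), against 2.89% of all promoters. Those 8 sites are given here on the strand of the gene, with the matched 14-letter element in capitals and 10 bases on either side, because the X-box is the element whose share here was highest relative to all promoters among the motifs searched.
Ccno (chr13:112987573-112987606, plus strand): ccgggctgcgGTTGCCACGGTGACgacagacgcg
Cfap206 (chr4:34730206-34730239, minus strand): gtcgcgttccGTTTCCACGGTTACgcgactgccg
Cfap298 (chr16:90935014-90935047, minus strand): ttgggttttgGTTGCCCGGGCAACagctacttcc
Cfap44 (chr16:44394762-44394795, plus strand): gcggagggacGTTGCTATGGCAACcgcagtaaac
Cfap45 (chr1:172521101-172521134, plus strand): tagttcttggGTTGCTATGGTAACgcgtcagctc
Cfap61 (chr2:145934766-145934799, plus strand): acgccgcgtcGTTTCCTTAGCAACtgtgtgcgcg
Drc1 (chr5:30281364-30281397, plus strand): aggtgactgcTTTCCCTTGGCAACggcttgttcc
Hydin (chr8:110266946-110266979, plus strand): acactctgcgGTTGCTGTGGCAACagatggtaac
In 6 of these 8 promoters the element began 8 to 27 bases before the annotated start, while in Cfap298 and Ccno it began 188 and 219 bases before it. The shorter element GTTGCC, which can be part of an X-box, was present on either strand in 19 of the 53 promoters (35.8%), against 14.1% of all promoters. The forkhead core TGTTTAC was present in 4 of them (7.5%), those of Ak7, Cfap20, Cfap43 and Dnah17, against 4.05% of all promoters. A match describes the letters only. The following 12 genes had no promoter in the table: Cfap53, Cfap54, Cfap65, Cfap73, Cfap97, Cfap157, Cfap299, Dnah3, Foxj1, Rsph1, Rsph4a and Rsph10b.

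At P21 the motile cilia genes that changed were all higher in cKO. Of the 59 that could be tested, 12 rose and 0 fell by edgeR's quasi-likelihood test at an adjusted p under 0.05, which is 20.3% of those tested, while 2.81% of all 17407 genes tested were called higher, 3.91% lower and 6.72% in either direction. With p under 0.05 before adjustment, 23 were higher and 0 lower, against 24.9% of all genes in either direction. The median log2 change of the 59 was 0.41, against 0.01 over all genes tested, with 46 positive and 13 negative values between -0.84 and 2.25. DESeq2 on the same counts called 7 of the same 12 higher (background 2.8%) and 0 lower, and the authors' deposited table also lists 7 higher and 0 lower. In all 12 both cKO libraries stood above both WT libraries, so leaving out a single library could hardly turn a change negative. The median over the tested motile cilia genes was then 0.23 to 0.53, depending on the library. The number called among the 12 was smaller in fits without a WT replicate, which take their spread from the cKO pair alone. Such fits leave 1 WT library, so their calls are not given. The median was 0.49 without WT replicate 1 and 0.28 without WT replicate 2. Without cKO replicate 1, when the spread comes from the WT pair alone, it was 0.23, and without cKO replicate 2 it was 0.53. A fit of all 10 libraries, which takes its spread from both ages, called 1 of the 12 (Ccdc40). The share of all genes called in these fits is not given here, so a smaller number cannot be set against a background.

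**Figure D1:**
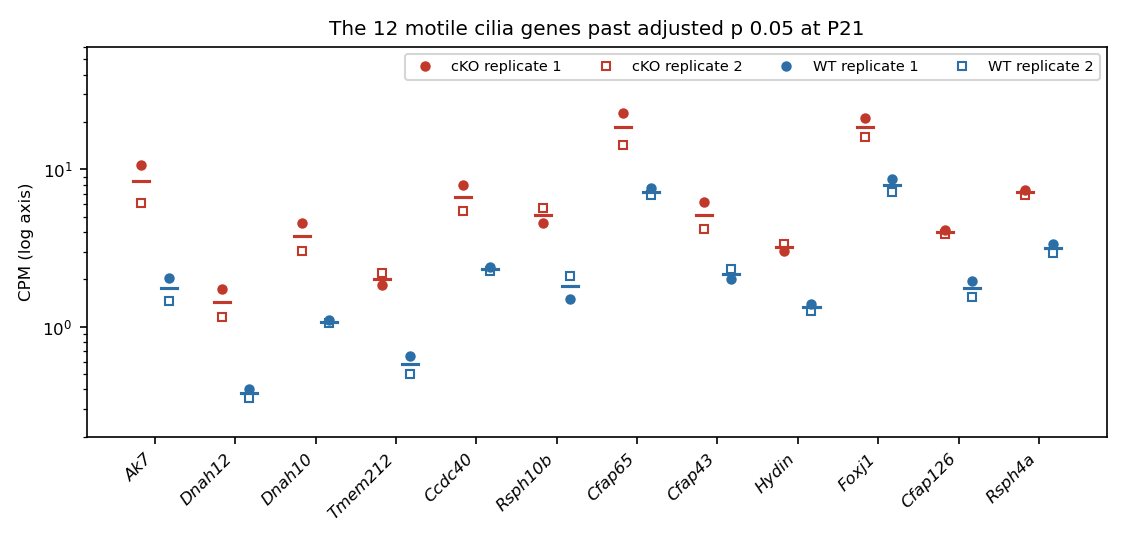
CPM (log axis) of the 12 motile cilia genes called higher in cKO at P21, ordered by their log2 change, with cKO left of WT for each gene. Filled circles are replicate 1, open squares are replicate 2 and bars are the means of 2 libraries. In all 12 genes both cKO libraries lie above both WT libraries, from Ak7 (log2 change 2.25) to Rsph4a (1.18).

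Foxj1 (chr11:116330704-116335499), the transcription factor at the head of the motile cilia programme, had 21.2 and 16.0 CPM in the cKO libraries (replicates 1 and 2) and 8.71 and 7.22 CPM in the WT libraries. Both cKO libraries stood above both WT libraries, and its log2 change was 1.22 (SE 0.19, edgeR adjusted p = 0.0131). Of the other regulators in the set, Ccno was not called and Mcidas could not be tested. Ccno, the cyclin needed to multiply centrioles, had 1.88 and 3.31 CPM in cKO against 2.2 and 1.25 CPM in WT, and these groups overlapped (log2 change 0.58, edgeR adjusted p = 0.42). Mcidas, the coregulator that starts multiciliated differentiation, had 3 and 0 counts in cKO against 1 and 3 counts in WT, too few to be tested. Tmem212 (chr3:27866065-27896391), a membrane protein used as a marker of ependymal cells, had 1.83 and 2.21 CPM in cKO and 0.651 and 0.501 CPM in WT, without overlap (log2 change 1.80, SE 0.38, edgeR adjusted p = 0.0353).

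Of the single axoneme genes, Ak7 (chr12:105703858-105782447), an adenylate kinase of motile cilia, rose most. It had 10.7 and 6.12 CPM in cKO and 2.05 and 1.45 CPM in WT (log2 change 2.25, SE 0.34, edgeR adjusted p = 0.0119), and its lower cKO library was well above both WT libraries. Hydin (chr8:110266968-110610253), a large protein of the central pair whose loss causes hydrocephalus in mice, had 3.04 and 3.36 CPM in cKO and 1.40 and 1.25 CPM in WT (log2 change 1.26, SE 0.29, edgeR adjusted p = 0.0457). Spag17, another central pair protein, had 0.916 and 0.903 CPM in cKO and 0.300 and 0.401 CPM in WT. Its groups did not overlap, yet its change of 1.36 did not pass (SE 0.47, edgeR adjusted p = 0.125). Tekt1, a tektin filament protein inside the axonemal microtubules, had 4.10 and 3.06 CPM in cKO and 2.25 and 2.31 CPM in WT, likewise without overlap and without a call (log2 change 0.65, edgeR adjusted p = 0.202).

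Ccdc39 and Ccdc40 form 1 complex, the ruler that sets the spacing of dynein arms and spokes, but gave different values. Ccdc40 (chr11:119228490-119265248) had 8.0 and 5.42 CPM in cKO and 2.40 and 2.26 CPM in WT, without overlap (log2 change 1.52, SE 0.27, edgeR adjusted p = 0.0202). Ccdc39 had 16.1 and 10.4 CPM in cKO and 14.4 and 14.3 CPM in WT, so that the cKO libraries lay on either side of the WT libraries (log2 change -0.12, SE 0.21, edgeR adjusted p = 0.777). Drc1, of the nexin link that Ccdc39 and Ccdc40 anchor, had the same layout, with 13.1 and 9.78 CPM in cKO and 11.8 CPM in each WT library (log2 change -0.04, SE 0.18, edgeR adjusted p = 0.914). The difference between the changes of these genes was not tested.

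Among the 15 dynein heavy chains, 2 rose and 0 fell, against 2.81% and 3.91% of all genes tested. Both are chains of the inner arms, which shape the bend of the cilium. Dnah10 (chr5:124725085-124834308) had 4.53 and 3.01 CPM in cKO and 1.10 and 1.05 CPM in WT (log2 change 1.80, SE 0.33, edgeR adjusted p = 0.0231). Dnah12 had 1.74 and 1.15 CPM in cKO and 0.401 and 0.351 CPM in WT, or 36 and 23 counts against 8 and 7 (log2 change 1.93, SE 0.45, edgeR adjusted p = 0.0459). The groups of both genes were apart. The inner arm chains Dnah1 (-0.20), Dnah2 (0.10) and Dnah6 (-0.31) gave no call, nor did the outer arm chain Dnah9, which had 18.2 and 14.5 CPM in cKO and 16.3 and 17.6 CPM in WT (log2 change -0.05, SE 0.16, edgeR adjusted p = 0.875). Over all 15 chains the median change was 0.10 and the range -0.63 to 1.93. Dnah7a, Dnah7b and Dnah7c are close copies on chromosome 1, so the division of reads between them is uncertain.

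Of the 28 Cfap genes tested, 3 rose and 0 fell, against 2.81% and 3.91% of all genes tested. Cfap65 (chr1:74902071-74935626) had 22.9 and 14.3 CPM in cKO and 7.56 and 6.87 CPM in WT (log2 change 1.37, SE 0.24, edgeR adjusted p = 0.0195). Cfap43, which is needed for an ordered sperm axoneme, had 6.17 and 4.16 CPM in cKO and 2.0 and 2.31 CPM in WT (log2 change 1.26, SE 0.29, edgeR adjusted p = 0.043), and Cfap126, or Flattop, which positions basal bodies, had 4.10 and 3.86 CPM in cKO and 1.95 and 1.55 CPM in WT (log2 change 1.18, SE 0.28, edgeR adjusted p = 0.0471). In each of the 3 genes both cKO libraries were above both WT libraries. The Cfap genes with the highest CPM at P21, Cfap20, Cfap36, Cfap97, Cfap298 and Cfap410, had log2 changes of 0.03 to 0.41 and none was called. Of these, Cfap20, a small protein of the doublet microtubules, had 41.1 and 41.6 CPM in cKO against 29.3 and 32.9 CPM in WT (log2 change 0.41, SE 0.11, edgeR adjusted p = 0.0754). Cfap161, named after its values were seen, was nearest to the threshold among the uncalled Cfap genes, with 2.17 and 1.60 CPM in cKO and 0.701 and 0.602 CPM in WT (log2 change 1.53, edgeR adjusted p = 0.0579).

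Of the 6 radial spoke genes tested, 2 rose and 0 fell, against 2.81% and 3.91% of all genes tested. Rsph4a (chr10:33905111-33916021), a protein of the spoke head, had 7.42 and 6.87 CPM in cKO and 3.36 and 2.96 CPM in WT (log2 change 1.18, SE 0.22, edgeR adjusted p = 0.023). Rsph10b had 4.53 and 5.72 CPM in cKO and 1.5 and 2.11 CPM in WT (log2 change 1.5, SE 0.29, edgeR adjusted p = 0.0261). Groups did not overlap for either gene. The other spoke head proteins gave smaller values, with log2 changes of 0.23 for Rsph1 (SE 0.23, edgeR adjusted p = 0.58) and 0.11 for Rsph9 (SE 0.20, edgeR adjusted p = 0.791). The spoke stalk paralogs Rsph3a (-0.13) and Rsph3b (-0.03) share sequence, so reads may have been divided between them, and neither was called.

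Taking every library into account, 34 of the 59 tested genes had both cKO libraries above both WT libraries, against 28.2% of all genes tested, 5 had both below, against 27.9%, and 20 overlapped. The 4 libraries did not rank evenly. Of all 65 genes, 37 were highest in cKO replicate 1 and 12 in cKO replicate 2, against 10 in WT replicate 1 and 6 in WT replicate 2. Of the 59 tested genes, cKO replicate 1 was above both WT libraries in 43 and below both in 7, against 40.4% and 39.6% of all genes tested. In cKO replicate 2 it was 37 above and 13 below, against 41.8% and 40.7%. The CPM summed over the 65 genes was 499 and 431 in cKO and 371 and 359 in WT.

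Markers of other cells and tissues differed between the same libraries, in both directions. Over all genes tested, edgeR called 2.81% higher and 3.91% lower. The 14 choroid plexus genes, led by Ttr, summed to 3740 and 1070 CPM in cKO and 1470 and 1230 CPM in WT. This sum was highest in cKO replicate 1 and lowest in cKO replicate 2. None of the 14 was called at P21 by edgeR (2 had p under 0.05 before adjustment, both higher), and their median change was 0.66. Markers of striatum, which also borders the lateral ventricle, summed to 216 and 286 CPM in cKO and 143 and 162 CPM in WT, with 4 of 9 called higher and 0 lower. Markers of radial glia and neural stem cells summed to 248 and 220 CPM in cKO and 167 and 159 CPM in WT, with 4 of 9 called higher and 1 lower. Markers of oligodendrocytes summed to 3630 and 3390 CPM in cKO and 5650 and 6000 CPM in WT, with 5 of 5 called lower (median log2 change -1.14). Markers of microglia summed to 105 and 107 CPM in cKO and 191 and 177 CPM in WT, with 4 of 5 called lower and 0 higher (median -1.15), and of 9 astrocyte markers 1 was called higher and 3 lower. The part of these markers in the motile cilia result was not tested. In bulk tissue, a change in the number of ciliated cells and a change in RNA per cell cannot be told apart.

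Genes of the same organelle outside the set were read in the same way. Of 50 tested genes for other axoneme proteins and dynein assembly factors, 4 rose and 0 fell, and their median log2 change was 0.72. Of all genes tested, 2.81% were called higher and 3.91% lower. With edgeR p under 0.05 before adjustment, 22 of the 50 were higher and 2 lower. The 57 genes of this list, tested or not, summed to 377 and 330 CPM in cKO and 346 and 330 CPM in WT. By sum, cKO replicate 2 was thus level with WT replicate 2 and below WT replicate 1. Their mean log2(CPM + 0.5) was 1.95 and 1.68 in cKO and 1.38 and 1.28 in WT. The 3 with the lowest adjusted p were Wdr63 (2.21), an intermediate chain of an inner dynein arm, Dnaaf3 (1.83), which helps assemble dyneins in the cytoplasm, and Iqcg (0.76), of the nexin link, with edgeR adjusted p between 0.0249 and 0.04. Among 15 other regulators tested, Myb, which acts early in multiciliated differentiation, rose, with 4.05 and 2.21 CPM in cKO and 0.952 and 0.702 CPM in WT (log2 change 1.91, SE 0.41, edgeR adjusted p = 0.0356). Rfx3, 1 of the RFX factors that bind the X-box, fell, with 51.9 and 35.6 CPM in cKO and 75.6 and 78.7 CPM in WT (log2 change -0.82, SE 0.17, edgeR adjusted p = 0.0418). The 17 listed regulators, tested or not, summed to 237 and 214 CPM in cKO and 262 and 233 CPM in WT. Their mean log2(CPM + 0.5) was 2.84 and 2.49 in cKO and 2.53 and 2.42 in WT. Of 41 genes for the primary cilium and intraflagellar transport, the machinery that immotile cilia use too, 0 rose and 1 fell (Ift22, log2 change -0.54, edgeR adjusted p = 0.0373). These counts are near the shares of all genes tested, and the median over the list was 0.02. That list summed to 1350 and 1330 CPM in cKO and 1390 and 1410 CPM in WT.

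**Figure D2:**
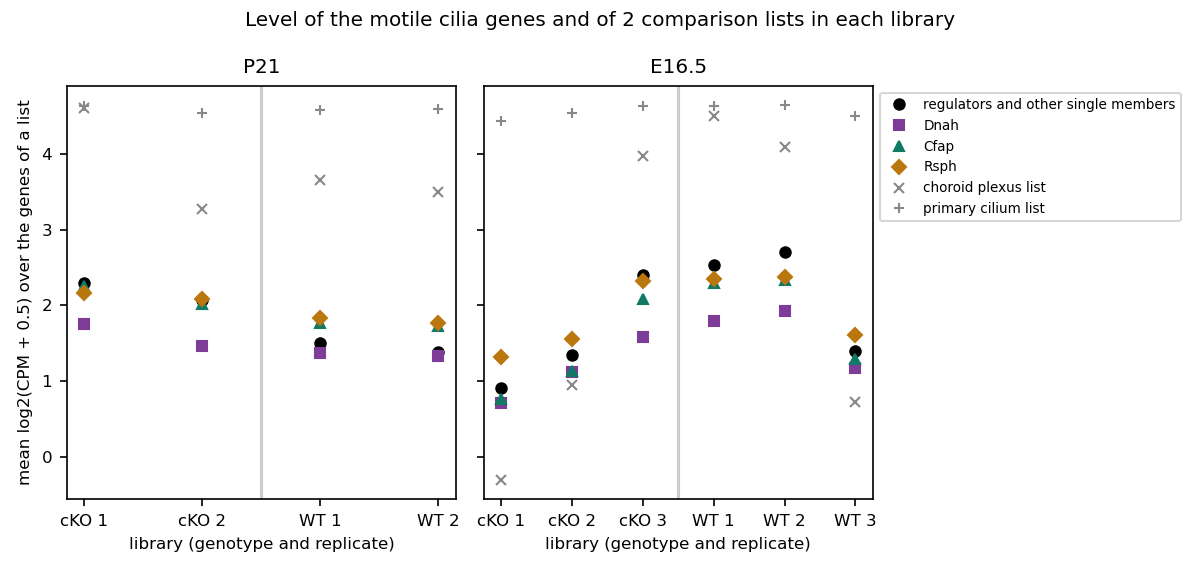
Mean log2(CPM + 0.5) over the genes of each list in every library, cKO left of WT, at P21 (left panel) and E16.5 (right panel). Coloured and black symbols are the families of motile cilia genes, crosses the 14 choroid plexus genes and plus signs the 41 genes of the primary cilium. At E16.5 every family is high in cKO replicate 3 and in WT replicates 1 and 2 and low in the other 3 libraries, as are the choroid plexus genes. The primary cilium genes vary less, between 4.44 and 4.65, and are slightly higher in the same libraries.

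At E16.5 no motile cilia gene was called, and libraries of the same genotype lay far apart. Of 54 genes tested, edgeR called 0 in either direction, where 0.124% of all 16958 genes tested were called. With p under 0.05 before adjustment, 0 were higher and 2 lower, Cfap57 (edgeR adjusted p = 0.198) and Cfap100 (edgeR adjusted p = 0.2), both named after their values were seen, while 20.6% of all genes were in either direction. DESeq2 called 0 (background 6.56%). The median log2 change was -0.61, against -0.01 over all genes tested, with 8 positive and 46 negative values, but this value moved with single libraries, to -1.22 without cKO replicate 3 and to -0.36 without WT replicate 2. In 50 of the 54 genes the groups overlapped. All cKO libraries were below all WT libraries in 4 genes, against 15.3% of all genes tested, and above in 0, against 14.0%.

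Foxj1 at E16.5 had 6.23, 11.1 and 40.6 CPM in cKO replicates 1 to 3 and 53.5, 59.8 and 18.9 CPM in WT replicates 1 to 3. The highest cKO library was thus above the lowest WT library, and the log2 change of -1.18 had an SE of 0.77 (edgeR adjusted p = 0.411). Cfap126 had 0, 0.17 and 10.5 CPM in cKO and 16.6, 13.2 and 1.13 CPM in WT. Rsph4a had 0, 0.452 and 3.05 CPM in cKO and 3.68, 4.93 and 0.462 CPM in WT. In both genes WT replicate 3 was well below cKO replicate 3, so that the groups overlapped.

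Mcidas and Ccno, like Foxj1, were lower in cKO replicates 1 and 2 and WT replicate 3 than in each of the other 3 libraries. Mcidas, almost absent at P21, had 0.0561, 0.396 and 1.5 CPM in cKO and 1.42, 2.36 and 0.154 CPM in WT (log2 change -0.98, SE 1.16, edgeR adjusted p = 0.644). Ccno had 0.729, 0.848 and 4.15 CPM in cKO and 2.74, 5.39 and 0.769 CPM in WT (log2 change -0.63, SE 0.92, edgeR adjusted p = 0.711). For both, WT replicate 3 lay between the lower cKO libraries. Ak7 had 0.337, 0.339 and 4.75 CPM in cKO and 7.79, 6.52 and 0.359 CPM in WT, which is again 1 high cKO library and 1 low WT library (log2 change -1.42, SE 1.35, edgeR adjusted p = 0.568).

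Some genes were nearly even across libraries. Across the 6 libraries of E16.5, the highest level was at least 10-fold above the lowest in 18 of the 64 genes with more than 3 counts in some library, with levels under 3 counts per library set to 3 counts. It was under 1.5-fold in 8. The median ratio was 4.04. Cfap20 was among the even genes at E16.5, with 49.0, 57.5 and 52.7 CPM in cKO and 50.1, 53.9 and 48.9 CPM in WT. Ccdc40, called at P21, had 15.2, 18.3 and 22.2 CPM in cKO and 17.4, 18.8 and 10.5 CPM in WT at E16.5 (log2 change 0.25, SE 0.25, edgeR adjusted p = 0.581).

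The choroid plexus genes, too, were higher at E16.5 in cKO replicate 3 and WT replicates 1 and 2 than in the other 3 libraries, although the order within those libraries differed. The 65 motile cilia genes summed to 284, 340 and 496 CPM in cKO replicates 1 to 3 and 549, 575 and 345 CPM in WT replicates 1 to 3. The 14 choroid plexus genes summed to 7.68, 53.4 and 2590 CPM in cKO and 4970, 3340 and 33.7 CPM in WT, with 5 of them at 0 counts in cKO replicate 1 and 2 in cKO replicate 2. Ttr alone had 0.953, 27.1 and 2340 CPM in cKO and 4570, 3070 and 16.3 CPM in WT. None of the 13 choroid plexus genes tested was called by edgeR or had p under 0.05 before adjustment. Meningeal fibroblast markers summed to 10.7, 23.1 and 74.2 CPM in cKO and 1040, 118 and 216 CPM in WT, with 0 of 5 called by edgeR and all 5 lower with p under 0.05 before adjustment. The primary cilium list again stayed level, with 1290, 1310 and 1340 CPM in cKO and 1300, 1380 and 1260 CPM in WT and 0 of 41 called by edgeR (2 higher and 2 lower with p under 0.05 before adjustment). The part of choroid plexus and meninges in the levels of the motile cilia genes was not tested.

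**Figure D3:**
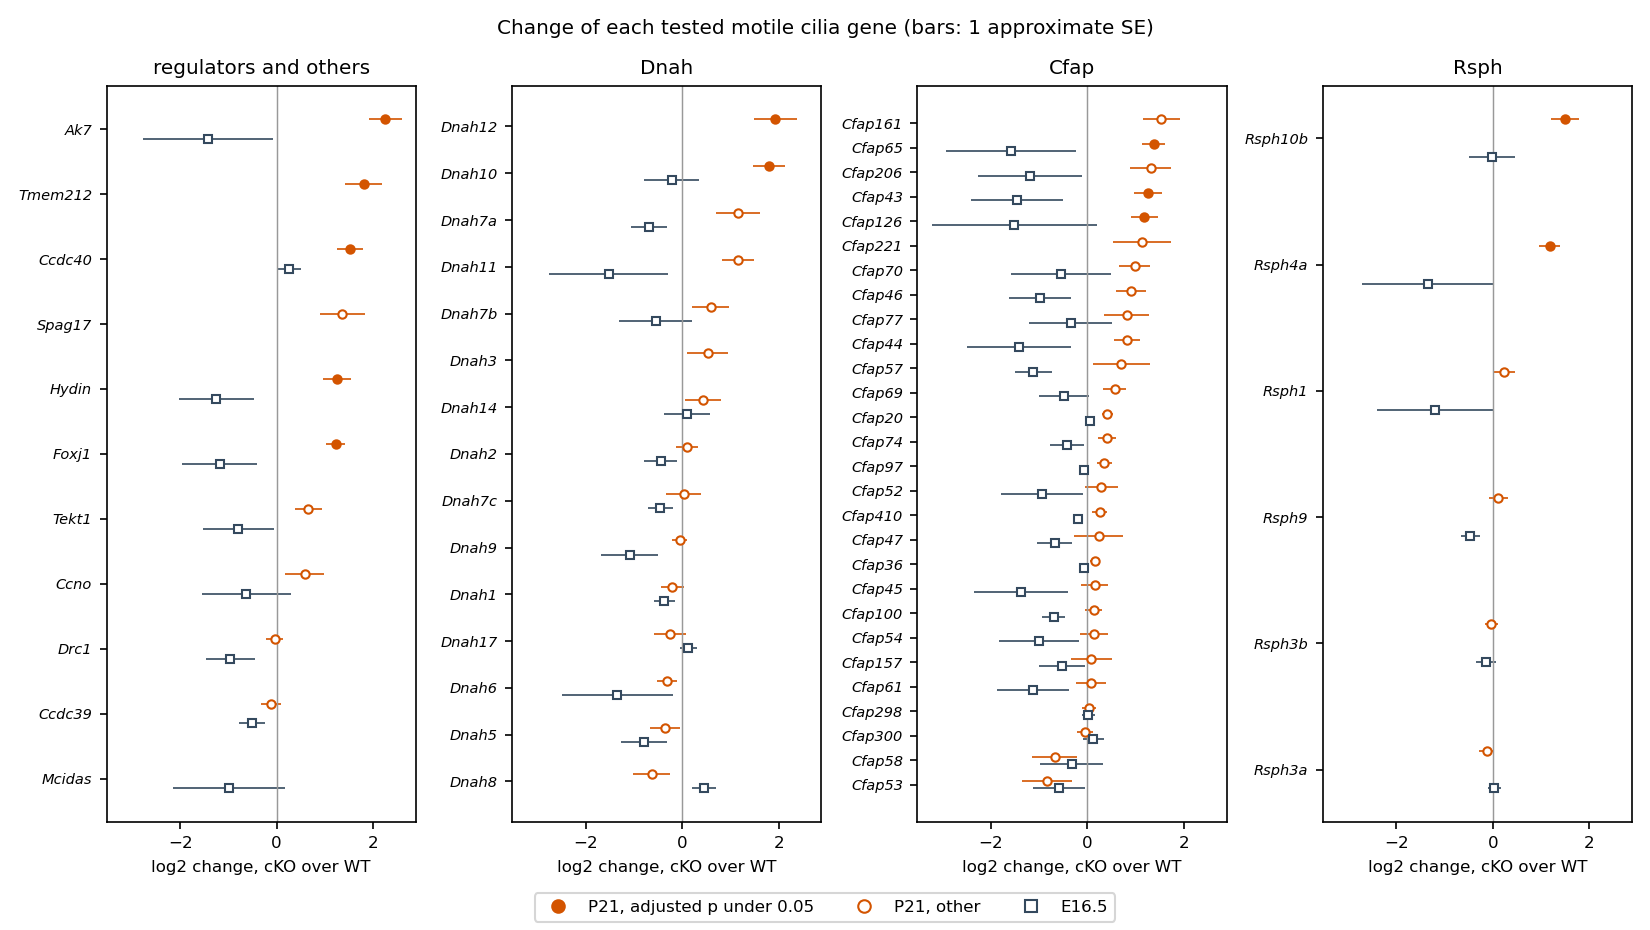
Log2 change of cKO over WT with 1 approximate SE for each tested motile cilia gene, by family, at P21 (circles, filled where edgeR adjusted p was under 0.05) and at E16.5 (squares). The 12 filled circles lie between 1.18 and 2.25, and the bars at E16.5 differ in width among these genes, with an SE of 1.35 for Ak7 and of 0.25 for Ccdc40.

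The change was not shown to differ between the ages. In 1 fit of all 10 libraries, the log2 change at P21 minus that at E16.5 had a median of 1.13 over 61 motile cilia genes, against 0.02 over all genes tested, and was positive for 54 of them. EdgeR called 0 of the 61 in either direction, where 1.16% of all 18979 genes were called. With p under 0.05 before adjustment there were 9 higher and 1 lower (16.4% of the 61), a share below that of all genes (3805 of 18979). DESeq2 called 1 higher (background 5.99%). Foxj1 had a difference of 2.37 (SE 1.08, edgeR adjusted p = 0.267) and Ccdc40 of 1.23 (SE 0.40, edgeR adjusted p = 0.149). Dnah12 had the smallest adjusted p (edgeR 0.0869) and was the gene DESeq2 called. It had 0 counts in each cKO library and 3, 9 and 1 counts in the WT libraries at E16.5, so the size of its fitted difference has no meaning as a fold. Without cKO replicate 3 of E16.5, edgeR called 1 gene, Cfap45.

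Histone marks at the starts of these genes were read as peaks called by the authors, in 1 library per genotype, so no difference has a replicate check. A gene was counted where a peak overlapped the stretch from 1 kb before to 1 kb after its annotated start, for the 53 genes with a known start. This start was that of the promoters above. For some genes, among them Ak7, the RefSeq gene coordinates begin outside that stretch. H3K4me3 peaks stood at 41 of the 53 in cKO (77.4%) and 38 in WT (71.7%), against 47.2% in cKO and 45.7% in WT of all 27025 starts. These 27025 are genes counted once each and not limited to protein-coding genes, as the motile cilia genes all are. Of 21896 protein-coding genes read at either gene end, 59.8% in cKO and 58.2% in WT had such a peak. Both genotypes had one at 38 (45.3% of all starts). The 3 genes with a peak in cKO only (1.91% of all starts) were Cfap77, Hydin and Rsph14, and 0 had one in WT only (0.374%). At Hydin the peak covered chr8:110267018-110267236, with 4.47-fold enrichment over input, the authors' value. At a -log10 q of at least 5 this peak was lost. At that limit 1 gene had H3K4me3 in cKO only (1.8% of all starts) and 1 in WT only (0.5%).

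H3K27ac peaks stood at 16 of the 53 in cKO (30.2%) and 6 in WT (11.3%), against 36.6% in cKO and 25.1% in WT of all starts. Of the 21896 protein-coding genes read at either gene end, 45.7% had one in cKO, 31.0% in WT and 15.3% in cKO only. Of the 53, 5 had one in both genotypes (24.5% of all starts), 11 had one in cKO only (12.1% of all starts) and 1, Cfap61, in WT only (0.548%). The whole cKO list held more H3K27ac peaks, 24065 against 13006 in WT. The 11 genes were 20.8% of the 53, above the share of all starts. At a stricter limit, a -log10 q of at least 5, the number of motile cilia genes with H3K27ac in cKO only was 5. This was 9.4% of the 53, below the 13.6% of all starts at that limit. Of the 12 genes called at P21, 11 have coordinates, and 2 of these had an H3K27ac peak in cKO (Ccdc40 and Cfap126) and 1 in WT (Ccdc40). Among these 11, Foxj1, Cfap65 and Rsph4a have no known start and were read at either gene end. No share of all genes was taken over such mixed windows.

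H3K27me3 peaks stood at 7 of the 53 in cKO (13.2%) and 2 in WT (3.8%), against 10.8% in cKO and 2.96% in WT of all starts, and here too the cKO list was longer, with 15659 peaks against 4124. The peaks in cKO only were at Ccno, Mcidas, Cfap43, Cfap46 and Cfap206 (5 genes, or 9.4%, against 7.85% of all starts), a share near the background, while 2 genes, Cfap77 and Dnah11, had peaks in both genotypes (2.94% of all starts) and 0 in WT only (0.0222%). Ccno and Mcidas are neighbours on chromosome 13. The peak at Mcidas covered chr13:112992549-112995471 with 11.7-fold enrichment, and the peak at Ccno covered chr13:112988460-112990756 with 7.27-fold enrichment, in the cKO list. For 11 further genes without a known start, either gene end was used in its place. Of these 11, 3 genes, Foxj1, Cfap65 and Cfap299, then had an H3K27me3 peak in cKO and none in WT, where 9.97% of all 21896 protein-coding genes did by the same windows, with 8.31-fold enrichment at Foxj1 and 9.09-fold at Cfap65. All 3 also had an H3K4me3 peak in both genotypes.

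**Figure D4:**
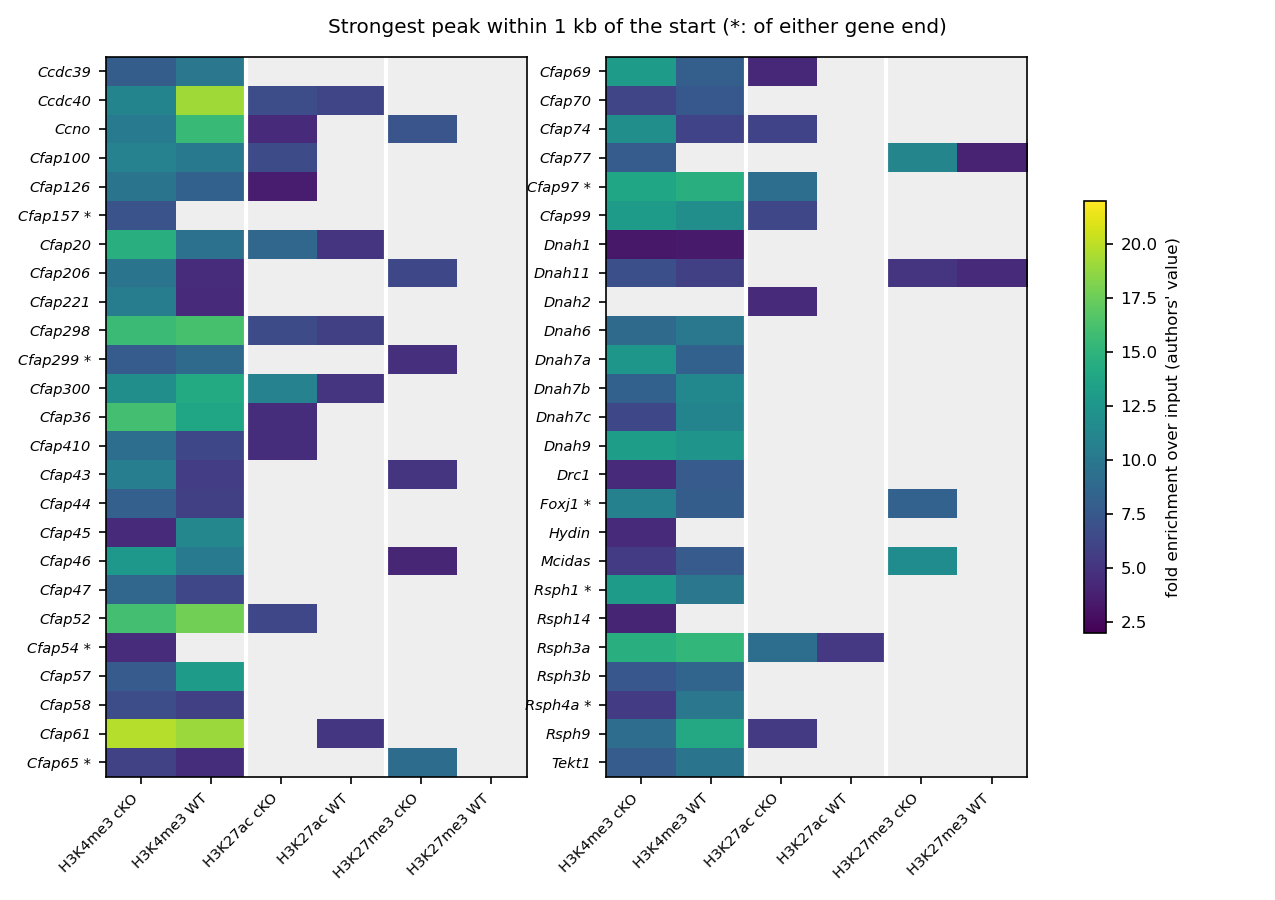
Fold enrichment over input (authors' value, colour scale) of the strongest peak within 1 kb of the start of each motile cilia gene with any peak, for H3K4me3, H3K27ac and H3K27me3, with cKO left of WT for each mark. Grey means no peak in that list, and an asterisk marks genes for which either gene end was used. H3K4me3 fills most rows in both genotypes, while H3K27me3 appears mainly in the cKO column.

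Among the 12 genes called at P21, 8 had a promoter sequence. Those of Ak7, Cfap43 and Hydin were the ones with a forkhead core or an X-box of at most 1 mismatch, and are given in full on the strand of the gene, with these elements in capitals. At Ak7 no peak of any mark was called within 1 kb of the start of this promoter in either genotype. The RefSeq gene begins further upstream, at chr12:105703858, outside that window, and peaks there were not read.
Ak7 (chr12:105705732-105706031, plus strand): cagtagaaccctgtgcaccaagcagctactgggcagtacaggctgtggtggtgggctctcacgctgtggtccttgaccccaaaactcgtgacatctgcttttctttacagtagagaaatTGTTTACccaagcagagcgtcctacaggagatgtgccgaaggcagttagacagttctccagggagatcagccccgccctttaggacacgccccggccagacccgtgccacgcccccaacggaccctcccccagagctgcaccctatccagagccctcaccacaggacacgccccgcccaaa
Cfap43 (chr19:47837312-47837611, minus strand): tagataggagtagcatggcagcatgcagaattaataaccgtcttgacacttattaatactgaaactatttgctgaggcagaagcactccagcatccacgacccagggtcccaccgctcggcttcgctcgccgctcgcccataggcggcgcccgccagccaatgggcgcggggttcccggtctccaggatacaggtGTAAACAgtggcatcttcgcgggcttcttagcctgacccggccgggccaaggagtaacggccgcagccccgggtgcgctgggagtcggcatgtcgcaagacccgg
Hydin (chr8:110266727-110267026, plus strand): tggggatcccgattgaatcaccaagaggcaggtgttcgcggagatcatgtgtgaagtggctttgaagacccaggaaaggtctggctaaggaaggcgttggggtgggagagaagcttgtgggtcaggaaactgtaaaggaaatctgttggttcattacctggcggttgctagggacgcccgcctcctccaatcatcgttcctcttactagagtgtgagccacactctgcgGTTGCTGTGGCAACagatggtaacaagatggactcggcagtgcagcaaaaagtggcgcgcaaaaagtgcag
The forkhead core began 131 bases before the start of the promoter at Ak7 and 55 bases before it, in reverse orientation (GTAAACA), at Cfap43.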

How the data were processed

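RNA-seq of polyA RNA (BGISEQ-500) is given as estimated counts per gene, made by the authors with Salmon 1.0.0 per the submitters' processing notes, and 20.8 to 22.5% of a library's values are not whole. They were rounded and tested with edgeR 4.0.16 (R 4.3.3, limma 3.58.1): filterByExpr, TMM scaling, robust quasi-likelihood F test and Benjamini-Hochberg adjustment over all genes tested, threshold 0.05. SE is the absolute log2 change divided by the square root of F. P21 and E16.5 were fitted apart, and the difference between ages in 1 fit of all 10 libraries. The labels call the RNA libraries biological replicates without naming animals or litters. P21 libraries summed to between 20089631 and 20332148 and E16.5 libraries to between 17662335 and 19760764. Replicates varied by a common coefficient of 0.146 (P21) and 0.25 (E16.5). With 2 libraries per genotype at P21, small changes cannot be seen.

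The deposited log2 fold changes, p-values and mean normalized counts (a score) of the authors' own tables (DESeq2 1.26.0 in the processing notes) were used only for their counts of calls. Peaks were called by the authors with MACS (2.2.7.1 per the file headers, 2.2.5 in the notes, after Bowtie2 2.3.5.1) against the input of the same genotype at a q limit of 0.01. The deposited peak tables give pileup signal, fold enrichment (a ratio to input), -log10 p and -log10 q-values. Overlap of 1 base was enough. Inputs held 18301652 tags in cKO and 17876653 in WT.

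The genes and lists were chosen with earlier results of these data known. Genes named by rule were all single genes, those called, and the 5 of each family with the highest mean CPM at P21. Up to 3 of each other list were named by adjusted p. Some of the named genes are given by their log2 change, or its range, without full values. Alternatives were DESeq2 1.42.0, other scalings and filters, the replicate number as a block, each library left out, and other windows and q limits for peaks. Tests were also run on simulated counts, with changes planted only in genes above a minimum mean count. The outcome is not given here, so that run lends no weight to the calls. Levels per kb of coding sequence were not used here. A called gene of the comparison lists is not reported by name here.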

Additional observations from a re-analysis of the deposited data

How the results depend on the processing

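The number of motile cilia genes called higher at P21 (12) was 7 with DESeq2, 1 in the fit of all 10 libraries and 2 to 15 when 1 library was left out. For the difference between ages (0) it was 1 with DESeq2 and 0 to 1 when 1 library was left out. The sum of CPM over the genes at P21, without the gene of highest level, was 415 in cKO and 321 in WT. With a -log10 q of at least 5, H3K4me3 in cKO only stood at 1 start (1.8% of all starts) and H3K27me3 in WT at 0 (2.6%). H3K27ac in cKO then stood at 10 (34.6% of all starts) and in cKO only at 5 (13.6%). The causes of these shifts were not tested. In the other 110 such comparisons the value stayed on its side of the threshold, within 1.5 times for a count. The upper-quartile scaling moved the median log2 change at P21 to 0.46 for the motile cilia genes and 0.06 for all genes, with 50 positive and 9 negative.

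Samples with the same replicate number did not deviate together. The correlations of their deviations were 0.02 for both pairs at P21 and -0.228, -0.021 and -0.492 at E16.5. With 2 libraries per genotype at P21 both pairs must give the same value, so it counts as a single value. These correlations cannot decide whether a number stands for a shared litter or batch, since the labels name none. With the replicate number as a block, 7 motile cilia genes were called higher and 0 lower at P21, and 0 at E16.5 and for the difference. Levels per kb of coding sequence were not run.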
